A study of Mus musculus with 4 samples.

Results

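The genes described here are the Wnt ligands, their Frizzled receptors and coreceptors, the secreted antagonists, the R-spondins with their Lgr receptors, and the core intracellular and nuclear components of the pathway. They were taken by gene symbol from the annotation of the array, which gave 64 genes with 1 probe each, of 16390 named genes and 23473 probes. Of these, 49 had a value on all 4 arrays and were tested, and 15 were blank on 1 to 3 arrays. Messenger RNA was measured in NSCL61, a mouse line that initiates gliomas and is known from earlier work to derive from p53-deficient neural stem cells overexpressing an oncogenic HRas, labelled as C57BL6 brain at P0. One group, with 2 arrays, carried an shRNA (short hairpin RNA) that targets Eva1, and the other, also with 2 arrays, was the control. Both groups share the p53 deficiency and the HRas transgene. The series title names a control hairpin for the second group, whose arrays are labelled with the line alone. Transformants were selected with hygromycin, for 2 weeks in the growth protocol of the labels and for 1 week in the treatment protocol. The labels do not say how many hairpins or clones were used, nor whether replicate arrays stem from independent cultures. The spread behind each p-value may therefore be technical.

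Wnt proteins are secreted, lipid-modified ligands that bind a Frizzled receptor on the cell surface. In the canonical branch a Frizzled and the coreceptor Lrp5 or Lrp6 recruit Dishevelled and Axin, beta-catenin escapes degradation, and it activates target genes together with TCF/LEF factors in the nucleus. In other branches, Wnt5a and related ligands act on cell polarity and movement without beta-catenin. In the brain the pathway is known for its part in the patterning of the neural tube and in the proliferation of neural stem cells.

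Values are intensities in arbitrary units on a linear scale, with the median of each array near 25. Differences are log2 of the quantile normalized intensity, Eva1 shRNA minus control, so a difference of 1 is a doubling relative to the other genes of the array. Tests are limma's, two-sided, with Benjamini-Hochberg adjustment over all 13765 genes tested and a threshold of 0.05. Beside the test, each called gene was refitted with 1 array left out in turn, which leaves a lone array in a group that is taken to vary like the other group. A further refit added 16 units to every intensity, so that changes of dim probes count for less. The targeted gene, Eva1, is named Mpzl2 in current nomenclature. Its intensities were 8.20 and 6.21 on the Eva1 shRNA arrays, against 55.0 and 54.4 on the control arrays, a difference of -3.12 ± 0.16 (SE, adjusted p = 0.00105). Among neural stem cell markers, Nes (nestin) had 434.8 and 429.9 on the Eva1 shRNA arrays, against 532.5 and 537.1 on the control arrays. Vim (vimentin) had 26085 and 20267 on the Eva1 shRNA arrays, against 16408 and 15332 on the control arrays. Neither passed (Nes difference -0.47, adjusted p = 0.0558, and Vim difference 0.33, adjusted p = 0.239). Fabp7, a radial glia marker, was lower, at 12.3 and 12.2 on the Eva1 shRNA arrays, against 22.1 and 24.6 on the control arrays (difference -1.15, adjusted p = 0.00521). Prom1 lay the other way, at 11.8 and 9.76 on the Eva1 shRNA arrays, against 3.25 and a blank on the control arrays, and was not tested. Msi1 did not pass (difference -0.24, adjusted p = 0.326), and Sox2 was not analysed here. Of 4 astrocyte markers, Gfap, Aqp4 and Slc1a2 were blank or below 3 on each array, while S100b had 17.7 and 16.1 on the Eva1 shRNA arrays, against 14.4 and 14.4 on the control arrays (difference 0.0082, adjusted p = 0.971). Summed over the 3 of 4 neuron markers with a probe, deposited intensities were 86.2 and 103 on the Eva1 shRNA arrays. They were 57.5 and 56.4 on the control arrays. Tubb3, which leads that sum, was higher (difference 0.84, adjusted p = 0.0443). Map2 and Snap25 did not pass (differences -0.26 and 0.13, adjusted p = 0.441 and 0.542). Sums over 4 of 4 microglia markers were 90.5 and 72.4 on the Eva1 shRNA arrays, against 62.9 and 66.5 on the control arrays. None of these 4 passed. Sums over 2 of 4 oligodendrocyte markers were 64.8 and 61.9, against 60.2 and 58.4 in the same order. Endothelium sums overlapped between the groups. Summed over 4 of 4 fibroblast markers, intensities were 124 and 72.9 on the Eva1 shRNA arrays, against 164 and 134 on the control arrays. Dcn, which leads that sum, did not pass (difference -2.02, adjusted p = 0.0532), and Col1a2 was higher, at 50.6 and 40.7 on the Eva1 shRNA arrays, against 22.1 and 24.8 on the control arrays (difference 0.76, adjusted p = 0.0226). The part of these markers in the results below was not tested. In a bulk sample, fewer cells of a type and less RNA per cell cannot be told apart.

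In the Eva1 shRNA cells 5 of 8 tested Frizzled receptor genes (62.5%) were called higher, beside 12.5% of all genes. Of 13 tested ligand genes, 2 (15.4%), Wnt2 and Wnt5a, were called lower, beside 13.5% of all genes. Of the 49 members tested, 7 rose and 8 fell in the Eva1 shRNA cells. This is 30.6% of the members, beside 26.0% of all genes called in either direction, 12.5% called higher and 13.5% called lower, so the share of members called was near the background. The median difference was 0.01 over the members and -0.01 over all genes. The groups did not overlap for 29 of the 49 members (59.2%), beside 66.7% of all genes, with 14 members higher and 15 lower beside 32.6% and 34.1% of all genes. Changes of at least 2-fold that passed the test were seen in 8 members (16.3%), 4 higher and 4 lower, beside 11.6% of all genes (5.17% higher and 6.41% lower). The 7 members that rose were the Frizzled genes Fzd1, Fzd2, Fzd3, Fzd4 and Fzd8, the antagonist gene Dkk2 and the feedback inhibitor gene Nkd2. The 8 that fell were the ligand genes Wnt2 and Wnt5a, the receptor genes Kremen1 and Lgr6, the ligase gene Znrf3, the Dishevelled gene Dvl3 and the nuclear factor genes Lef1 and Tcf7l2. Under the authors' scaling alone, which raised the median difference of all genes to 0.18, 11 members were called higher and 5 lower. Of all 13765 genes, 2714 were called higher and 1295 lower under that scaling.

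**Figure D1:**
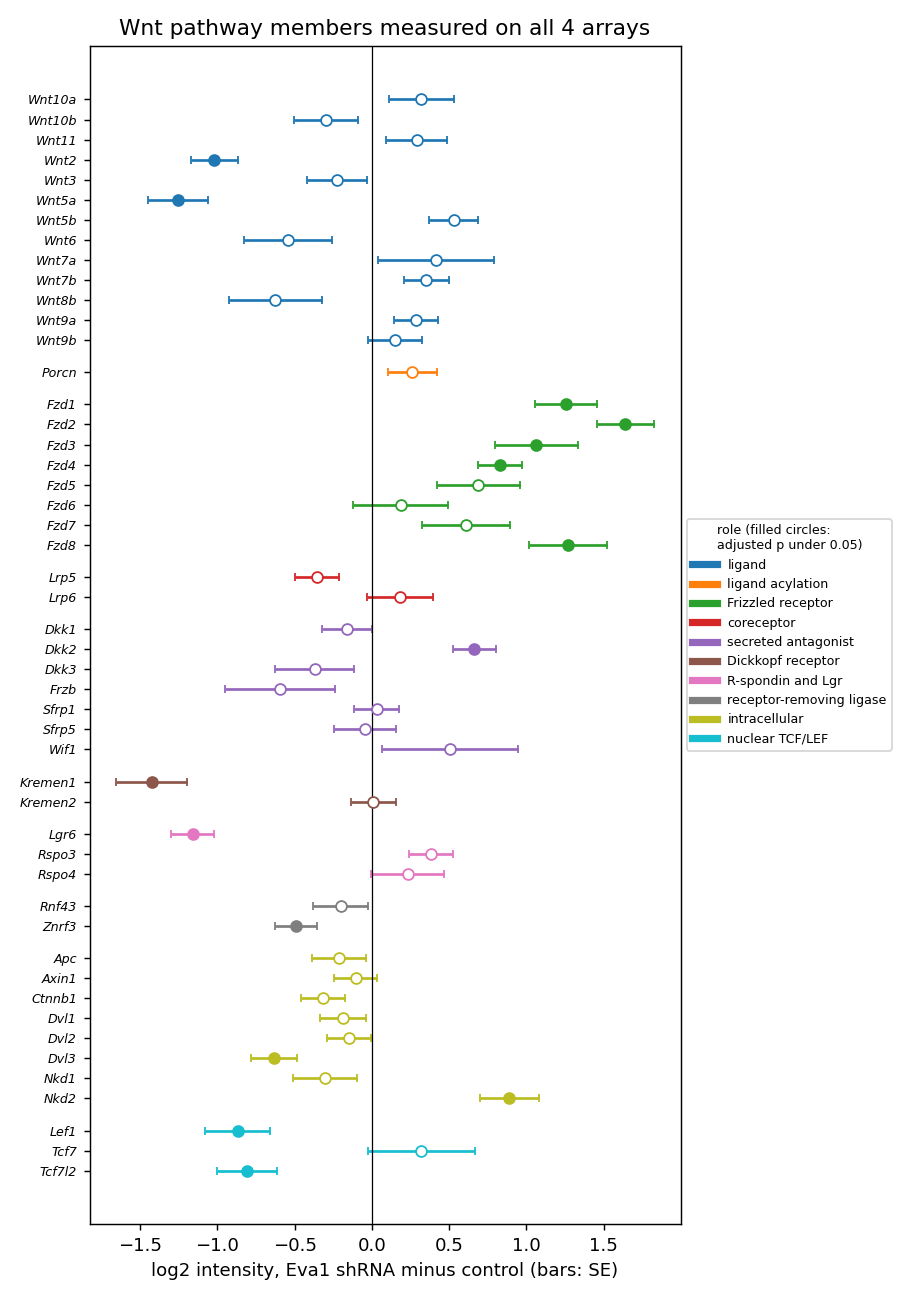
Difference in log2 intensity (x axis, Eva1 shRNA minus control, bars show the SE) of the 49 members measured on all 4 arrays, grouped by role, with filled circles for those that passed the test. All 8 Frizzled genes lie to the right of 0, between 0.19 and 1.64, while the ligand genes lie on both sides, between -1.26 and 0.53.

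The promoters of members that rose and of members that fell were set side by side, since TCF/LEF factors bind a short sequence in the promoters of pathway genes. RefSeq windows of 300 bases (GRCm38.p6, 250 before and 50 after the start) were found for 42 of the 64 members, in 52 windows. Printed are Fzd1 and Fzd4, which rose, and Wnt2 and Lgr6, which fell, each 5′ to 3′ on the strand of the gene, with CG dinucleotides in capitals.
Fzd1 (chr5:4758167-4758466, minus strand): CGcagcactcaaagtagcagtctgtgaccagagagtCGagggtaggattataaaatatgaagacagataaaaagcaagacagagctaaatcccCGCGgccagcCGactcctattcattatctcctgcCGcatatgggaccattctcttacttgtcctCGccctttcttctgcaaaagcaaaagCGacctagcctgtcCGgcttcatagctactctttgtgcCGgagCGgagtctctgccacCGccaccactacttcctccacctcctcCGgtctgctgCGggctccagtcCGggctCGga
Fzd4 (chr7:89404116-89404415, plus strand): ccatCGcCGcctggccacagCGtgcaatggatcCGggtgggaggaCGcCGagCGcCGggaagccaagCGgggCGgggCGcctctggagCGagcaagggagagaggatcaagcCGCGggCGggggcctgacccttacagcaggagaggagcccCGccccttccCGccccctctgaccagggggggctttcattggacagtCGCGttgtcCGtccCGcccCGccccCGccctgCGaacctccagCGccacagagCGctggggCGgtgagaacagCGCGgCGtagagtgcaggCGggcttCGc
Wnt2 (chr6:18030396-18030695, minus strand): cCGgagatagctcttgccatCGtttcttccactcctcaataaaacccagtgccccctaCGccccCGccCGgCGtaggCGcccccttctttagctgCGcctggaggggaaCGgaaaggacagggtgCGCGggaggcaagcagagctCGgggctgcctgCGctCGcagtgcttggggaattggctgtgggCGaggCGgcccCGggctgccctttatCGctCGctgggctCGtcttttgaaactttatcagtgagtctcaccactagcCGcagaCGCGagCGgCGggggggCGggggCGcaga
Lgr6 (chr1:135105227-135105526, minus strand): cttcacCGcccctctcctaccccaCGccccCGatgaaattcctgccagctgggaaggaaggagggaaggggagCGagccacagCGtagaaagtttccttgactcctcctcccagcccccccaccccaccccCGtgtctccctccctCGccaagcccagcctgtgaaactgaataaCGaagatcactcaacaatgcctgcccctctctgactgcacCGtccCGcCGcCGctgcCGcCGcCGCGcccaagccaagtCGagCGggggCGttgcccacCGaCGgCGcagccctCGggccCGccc

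These windows held 16, 32, 27 and 24 CG dinucleotides for Fzd1, Fzd4, Wnt2 and Lgr6. The median was 24 over the 52 windows of members and 18 over the 13961 windows of genes tested on the array. The TCF/LEF core was searched as CTTTGAA and CTTTGAT on both strands, which differ only in the last letter. It was in 3 of the 52 member windows (5.77%), 1 each for Dkk1, Wnt11 and Wnt5b, beside 6.30% of the windows of tested genes and 8.65% of all 32851 windows. It was in 0 of the 13 windows of 9 called members. These letters not being in this window says nothing of more distant sites.

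Among the Wnt ligand genes, Wnt2 and Wnt5a passed the test, and both fell. Of 19 ligand genes on the array, 13 were tested, of which 0 rose, 2 fell and 11 did not pass, with a median difference of 0.15. The 2 called are 15.4% of the 13, beside 26.0% of all genes called in either direction and 13.5% called lower. Groups did not overlap for 6 of the 13, beside 66.7% of all genes. Of these 6, 3 had Eva1 shRNA higher and 3 lower, beside 32.6% and 34.1% of all genes. Wnt5a, the prototype of ligands that act without beta-catenin, had intensities of 12.6 and 9.70 on the Eva1 shRNA arrays, against 24.9 and 20.4 on the control arrays. Both Eva1 shRNA arrays were below both control arrays, with a difference of -1.26 ± 0.19 (SE, adjusted p = 0.00982), or 2.39-fold lower. Wnt2, a ligand of the canonical branch, had 10.1 and 11.1 on the Eva1 shRNA arrays, against 18.7 and 18.2 on the control arrays. The groups were again apart, with a difference of -1.02 ± 0.15 (SE, adjusted p = 0.00936). The call of Wnt5a was lost without Eva1 shRNA array 2 (adjusted p = 0.0591) and that of Wnt2 without Eva1 shRNA array 1 (adjusted p = 0.0632). With 16 units added the differences were -0.62 for Wnt5a and -0.47 for Wnt2, and both still passed.

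Wnt5b, the close relative of Wnt5a, lay in the other direction. Its intensities were 44.4 and 39.8 on the Eva1 shRNA arrays, against 22.5 and 28.7 on the control arrays, with a difference of 0.53 ± 0.16 (SE) that did not pass (adjusted p = 0.0653). The adjusted p of Wnt5b was 0.0203 when the dimmest 25% of probes were dropped, 0.0357 under the authors' scaling, 0.0233 under eBayes trend and 0.0236 after 16 units were added. The groups of Wnt5b did not overlap. Wnt7b, a ligand active in the developing forebrain, had 32.1 and 27.6 on the Eva1 shRNA arrays, against 20.5 and 19.9 on the control arrays (difference 0.35, adjusted p = 0.135). Wnt9a had a difference of 0.28 (adjusted p = 0.200). Wnt7b and Wnt9a passed with the authors' scaling only (adjusted p = 0.0449 and 0.0469). Wnt6, with a difference of -0.54, had 12.6 and 20.6 on the Eva1 shRNA arrays, so that its 2 arrays differed by more than its group means. Wnt3, Wnt9b, Wnt10a and Wnt11 had differences of -0.23, 0.15, 0.32 and 0.29, none of which passed. Wnt7a, Wnt8b and Wnt10b had intensities of 1.28 to 3.99 on all 4 arrays, below 4.14, the value under which 95% of the probes blank on 1 to 3 arrays had their mean. Porcn, the acyltransferase that attaches the lipid to Wnt proteins, had 63.9 and 50.4 on the Eva1 shRNA arrays, against 40.1 and 43.4 on the control arrays, and did not pass (difference 0.26, adjusted p = 0.276).

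Of the 8 Frizzled genes tested, Fzd1, Fzd2, Fzd3, Fzd4 and Fzd8 rose in the Eva1 shRNA cells, while Fzd5, Fzd6 and Fzd7 had positive differences that did not pass. Frizzleds are the membrane receptors whose cysteine-rich outer domain binds the Wnt ligand. In counts, 5 rose, 0 fell and 3 did not pass, with a median difference of 0.95. This compares with 12.5% of all genes called higher. Groups did not overlap for 7 of the 8, each with Eva1 shRNA higher, beside 32.6% of all genes. The grouping by role was made with these results known and was given no test of its own.

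Fzd2 had intensities of 57.8 and 54.4 on the Eva1 shRNA arrays, against 13.2 and 18.8 on the control arrays. It rose 3.11-fold, with a difference of 1.64 ± 0.18 (SE, adjusted p = 0.00444), and it passed whichever array was left out, with adjusted p of 0.0160 to 0.0338. Fzd1, which is close to Fzd2 in sequence, had 47.1 and 41.6 on the Eva1 shRNA arrays, against 13.2 and 19.5 on the control arrays, a difference of 1.26 ± 0.20 (SE, adjusted p = 0.0110). Fzd7, the third gene of this subfamily, had 13.0 and 11.8 on the Eva1 shRNA arrays, against 5.06 and 9.47 on the control arrays, and did not pass (difference 0.61, adjusted p = 0.172). The probe sequences were not used here, and signal shared between the probes of these related genes was not tested. Fzd8 had 26.3 and 28.4 on the Eva1 shRNA arrays, against 7.37 and 12.7 on the control arrays, a difference of 1.27 ± 0.25 (SE, adjusted p = 0.0206). In each of these 4 genes both Eva1 shRNA arrays stood above both control arrays. Fzd3, known for its part in axon guidance and planar cell polarity, had 77.1 and 77.1 on the Eva1 shRNA arrays, against 24.0 and 42.6 on the control arrays, a difference of 1.06 ± 0.27 (SE, adjusted p = 0.0404). Fzd4, the receptor of the vascular ligand norrin, had 18.4 and 16.2 on the Eva1 shRNA arrays, against 7.67 and 8.91 on the control arrays, a difference of 0.83 ± 0.14 (SE, adjusted p = 0.0132). Fzd5 had 7.80 and 11.3 on the Eva1 shRNA arrays, against 4.11 and 6.06 on the control arrays (difference 0.69, adjusted p = 0.117). Fzd6 was the exception among the Frizzled genes, with overlapping groups of 62.5 and 69.7 on the Eva1 shRNA arrays, against 36.5 and 69.4 on the control arrays (difference 0.19, adjusted p = 0.691).

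The 2 control arrays were not alike for the Frizzled genes. After normalization control array 2 was above control array 1 for 8 of 8 Frizzled genes, with a median gap of 0.58 on the log2 scale, while the Eva1 shRNA arrays had a median gap of 0.03. Over all genes control array 2 was above control array 1 for 44.1%, with a median gap of -0.04, and 4.83% of genes had a gap at or above the Frizzled median. The part of this gap in the Frizzled differences was not tested, and the values without each control array are as follows. Without control array 1 the median Frizzled difference was 0.73, and without control array 2 it was 1.24. Fzd3 was 0.68 without control array 1 (adjusted p = 0.0706) and 1.45 without control array 2 (adjusted p = 0.0212), Fzd7 was 0.20 (adjusted p = 0.441) and 1.03 (adjusted p = 0.0312), and Fzd6 turned to -0.26 without control array 1. Fzd4 had a gap of 0.10 between the control arrays, and its call was lost without control array 1 (adjusted p = 0.0588) and when Eva1 shRNA array 1 (0.0853) or 2 (0.0625) was left out. Without Eva1 shRNA array 1 or 2 the calls of Fzd1, Fzd8 and Fzd3 were lost. Their differences were then 1.20 and 1.31 for Fzd1, 1.37 and 1.18 for Fzd8, and 1.10 and 1.03 for Fzd3. Fewer of all genes were called as well in each fit that left out an array. Fzd3 was also lost with blank cells filled (adjusted p = 0.0750). With 16 units added the differences were 1.06 for Fzd2, 0.78 for Fzd1, 0.63 for Fzd8 and 0.36 for Fzd4, over 1.5 times smaller, and all 4 still passed.

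**Figure D2:**
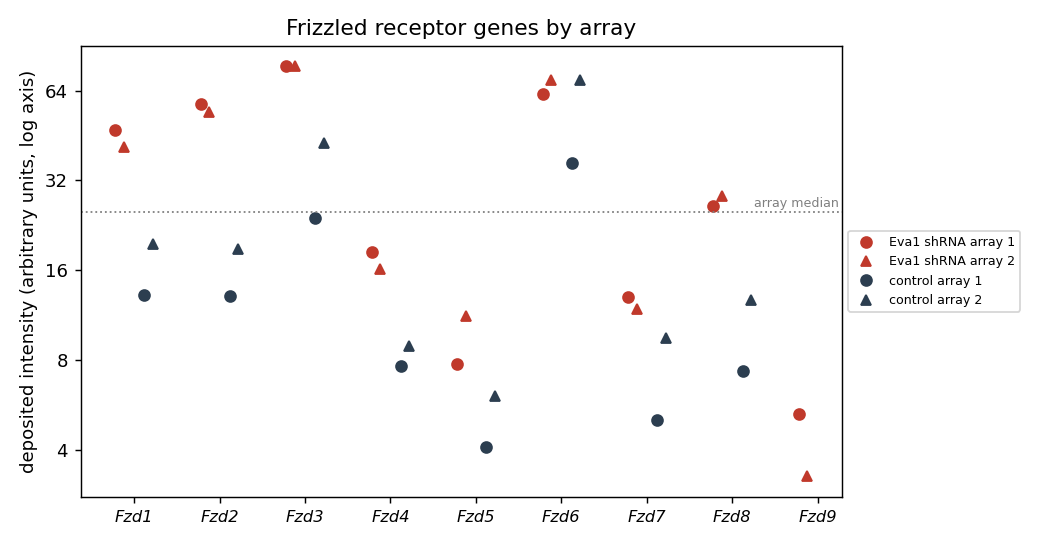
Deposited intensity (y axis, log scale) of the 9 Frizzled genes on the 2 Eva1 shRNA arrays (red) and the 2 control arrays (dark), with circles for array 1 and triangles for array 2 of each group. Control array 2 is above control array 1 for each of Fzd1 to Fzd8, and both Eva1 shRNA arrays are above both control arrays for all of these except Fzd6; Fzd9 has values on the Eva1 shRNA arrays only.

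The coreceptors that join the Frizzleds in the canonical branch did not pass the test. Lrp5 had intensities of 32.1 and 28.1 on the Eva1 shRNA arrays, against 34.2 and 32.3 on the control arrays (difference -0.36, adjusted p = 0.130), and Lrp6 had 40.7 and 32.5 on the Eva1 shRNA arrays, against 32.1 and 24.2 on the control arrays (difference 0.18, adjusted p = 0.562). Kremen1, a membrane receptor for Dickkopf proteins that helps them take Lrp5 and Lrp6 off the cell surface, had 8.46 and 5.52 on the Eva1 shRNA arrays, against 13.7 and 18.2 on the control arrays. It fell 2.68-fold, with a difference of -1.42 ± 0.23 (SE, adjusted p = 0.0114) and no overlap between the groups. The call of Kremen1 was lost without Eva1 shRNA array 2 (adjusted p = 0.0507) and without control array 2 (0.0535), and with 16 units added the difference was -0.56. Kremen2 had overlapping groups (difference 0.01, adjusted p = 0.964).

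Among the secreted antagonists Dkk2 was the member that passed the test. Antagonists act outside the cell, with Dickkopf proteins binding the Lrp coreceptors and the Sfrp proteins, Frzb and Wif1 binding the Wnt ligands themselves. Of 10 antagonist genes 7 were tested, of which 1 rose, 0 fell and 6 did not pass. This is 14.3% called, beside 26.0% of all genes, with a median difference of -0.04. Dkk2 had 58.3 and 57.7 on the Eva1 shRNA arrays, against 30.6 and 33.9 on the control arrays. It rose 1.58-fold, with a difference of 0.66 ± 0.14 (SE, adjusted p = 0.0236) and no overlap between the groups. The call of Dkk2 was lost with any single array left out, at adjusted p of 0.105 and 0.118 without Eva1 shRNA arrays 1 and 2 and of 0.0858 and 0.0591 without control arrays 1 and 2. Dkk1, itself a known target of beta-catenin, had 43.1 and 33.5 on the Eva1 shRNA arrays, against 37.2 and 36.9 on the control arrays (difference -0.16, adjusted p = 0.506). The differences of Dkk3, a divergent Dickkopf relative, and of Sfrp1 and Sfrp5 were -0.37, 0.03 and -0.04. Frzb and Wif1 had intensities under 5.2 on all arrays, with differences of -0.59 and 0.51 that did not pass, although Frzb had a difference of -1.11 without Eva1 shRNA array 2 (adjusted p = 0.0398).

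Lgr6 was lower in the Eva1 shRNA cells, while the R-spondin genes tested did not pass. R-spondins are secreted amplifiers of Wnt signalling that bind Lgr4, Lgr5 or Lgr6 and the membrane ubiquitin ligases Znrf3 and Rnf43, which otherwise remove Frizzleds from the cell surface. Lgr6 had intensities of 31.0 and 30.8 on the Eva1 shRNA arrays, against 61.8 and 58.6 on the control arrays. The arrays of a group were close together and the groups far apart, with a difference of -1.16 ± 0.14 (SE, adjusted p = 0.00525), or 2.23-fold lower. Lgr6 and Fzd2 were the 2 members of the 15 called that passed whichever array was left out, and Lgr6 had adjusted p of 0.0255 to 0.0428 in those fits. Rspo3 had 29.7 and 28.8 on the Eva1 shRNA arrays, against 20.0 and 19.1 on the control arrays, with a difference of 0.38 that did not pass (adjusted p = 0.108) but did with the authors' scaling (difference 0.58, adjusted p = 0.0318). Rspo4 had 5.12 and 5.41 on the Eva1 shRNA arrays, against 4.60 and 3.31 on the control arrays, and did not pass (difference 0.23, adjusted p = 0.511). Znrf3 had 9.22 and 8.73 on the Eva1 shRNA arrays, against 10.3 and 11.2 on the control arrays, and passed narrowly (difference -0.49 ± 0.13 SE, adjusted p = 0.0495). Its call was lost whichever array was left out, at adjusted p of 0.192 and 0.183 without Eva1 shRNA arrays 1 and 2 and of 0.117 and 0.110 without control arrays 1 and 2. It was also lost when median centring (0.0629), the authors' scaling (0.224), blank cells filled (0.0694), 16 units added (difference -0.19, adjusted p = 0.144), eBayes trend (0.111) or every probe (0.0628) was used. Rnf43 had overlapping groups (difference -0.20, adjusted p = 0.447). In the RefSeq gene order Kremen1 and Znrf3 are neighbours on chromosome 11 with no other protein-coding gene start between them, and both were lower. The neighbouring ligand genes Wnt6 and Wnt10a on chromosome 1, at -0.54 and 0.32, and Wnt9b and Wnt3 on chromosome 11, at 0.15 and -0.23, did not pass.

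Inside the cell, beta-catenin and the scaffolds of its degradation complex did not pass the test. Of 8 tested intracellular members, 1 rose, 1 fell and 6 did not pass, a share near the 26.0% of all genes called in either direction. The median difference was -0.20 over these members and -0.01 over all genes. After normalization the sign was negative for 7 of the 8, beside 7045 of all 13765 genes. Ctnnb1, the beta-catenin gene, had intensities of 702.2 and 710.2 on the Eva1 shRNA arrays, against 758.2 and 829.4 on the control arrays, with a difference of -0.32 ± 0.14 (SE, adjusted p = 0.169). It passed with 16 units added (difference -0.31, adjusted p = 0.0386). The scaffold gene Axin1 had 348.8 and 332.1 on the Eva1 shRNA arrays, against 339.1 and 308.6 on the control arrays (difference -0.10 after normalization, adjusted p = 0.623), and Apc, the tumour suppressor of the same degradation complex, had a difference of -0.21 (adjusted p = 0.415). Differences as small as those of Axin1 and Apc changed sign with the authors' scaling, at 0.07 and 0.01. Levels of these transcripts do not measure the amount or the activity of beta-catenin protein.

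Of the Dishevelled genes, which relay the signal from Frizzled to the degradation complex, Dvl3 passed the test. Dvl3 had 67.7 and 66.7 on the Eva1 shRNA arrays, against 83.9 and 99.2 on the control arrays, a difference of -0.64 ± 0.15 (SE, adjusted p = 0.0320). Both Eva1 shRNA arrays were below both control arrays. Its call was lost without Eva1 shRNA arrays 1 (adjusted p = 0.147) or 2 (0.128), without control arrays 1 (0.0605) or 2 (0.0922), with the authors' scaling (0.0867) and with blank cells filled (0.0534). Dvl1 and Dvl2 had differences of -0.19 and -0.15 and did not pass, and that of Dvl2 was 0.06 with the authors' scaling. Nkd2, a feedback inhibitor that binds Dishevelled, had 7.14 and 5.37 on the Eva1 shRNA arrays, against 2.55 and 3.39 on the control arrays, a difference of 0.89 ± 0.19 (SE, adjusted p = 0.0249). Both control values of Nkd2 were below 4.14 as well, and with 16 units added the difference was 0.19 and did not pass (adjusted p = 0.155). Its call was also lost without Eva1 shRNA arrays 1 (0.126) or 2 (0.0602), without control array 1 (0.0967), with blank cells filled (0.0511) and with eBayes trend (0.0526). The related Nkd1 had overlapping groups (difference -0.30, adjusted p = 0.325).

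In the nucleus, 2 of the 3 tested TCF/LEF genes were lower, both at low intensity, beside 13.5% of all genes called lower. Lef1, a DNA-binding partner of beta-catenin, had 7.01 and 4.59 on the Eva1 shRNA arrays, against 8.97 and 8.77 on the control arrays, a difference of -0.87 ± 0.21 (SE, adjusted p = 0.0360). With 16 units added the difference of Lef1 was -0.27 (adjusted p = 0.0602), and the call was also lost with the authors' scaling (0.0927), with blank cells filled (0.0648), without Eva1 shRNA array 2 (0.140), without control array 1 (0.132) and without control array 2 (0.0856). Tcf7l2 had 1.36 and 1.24 on the Eva1 shRNA arrays, against 1.96 and 2.76 on the control arrays, a difference of -0.81 ± 0.19 (SE, adjusted p = 0.0347). All of these lie near the lowest values of the arrays, which were 1.19 to 1.44, and with 16 units added the difference was -0.09 (adjusted p = 0.530). The call of Tcf7l2 was also lost with eBayes trend (0.242), without Eva1 shRNA arrays 1 (0.139) or 2 (0.155) and without control array 2 (0.0790). Tcf7 had 20.5 and 11.7 on the Eva1 shRNA arrays, against 13.4 and 8.53 on the control arrays, and its groups overlapped (difference 0.32, adjusted p = 0.534). Axin2, a feedback gene widely used as a reporter of beta-catenin activity, had 1.62 and 2.33 on the Eva1 shRNA arrays, against 1.47 and a blank on the control arrays, and was not tested.

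**Figure D3:**
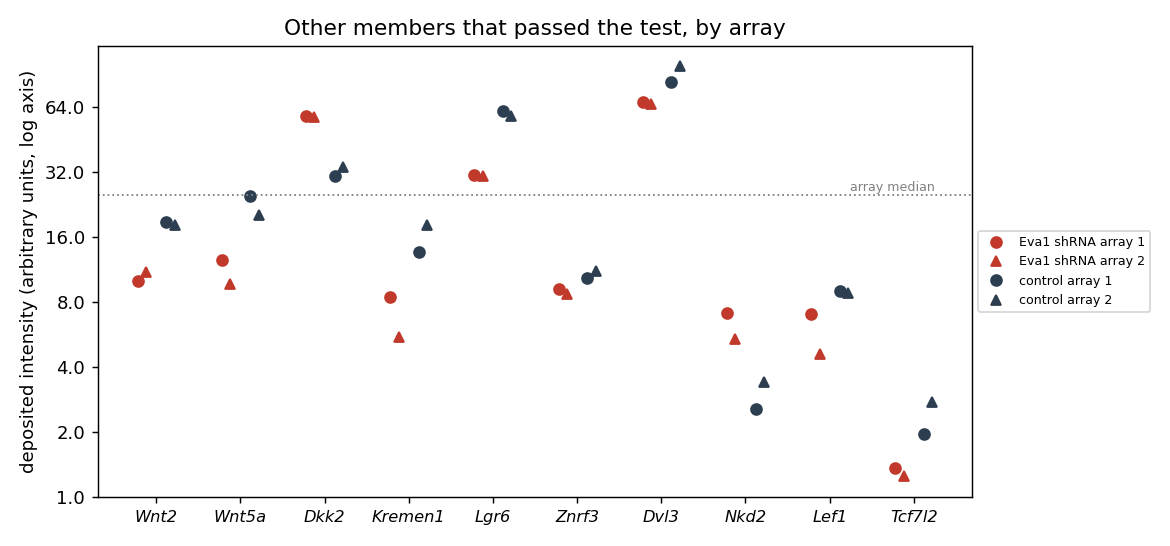
Deposited intensity (y axis, log scale) of the 10 members outside the Frizzled genes that passed the test, on the 2 Eva1 shRNA arrays (red) and the 2 control arrays (dark), with circles for array 1 and triangles for array 2. Lgr6 is at 31.0 and 30.8 against 61.8 and 58.6, whereas Tcf7l2 is under 3 on every array.

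The 15 members blank on some array were dim wherever they had a value. Their highest intensity was 5.29, on Eva1 shRNA array 1 for Fzd9. Fzd9 had 5.29 and 3.26 on the Eva1 shRNA arrays and was blank on both control arrays, and so was Wnt16, with 2.09 and 1.78 on the Eva1 shRNA arrays. Dkk4 was blank on both Eva1 shRNA arrays and had 1.66 and 2.41 on the control arrays. Wnt1, Wnt2b, Wnt3a, Wnt4, Wnt8a, Lgr4, Lgr5, Rspo1, Rspo2, Sfrp2, Sfrp4 and Axin2 were blank on 1 to 3 arrays with no such split. With blank cells filled by the lowest value of the array, Fzd9 had a difference of 1.55 (adjusted p = 0.0226) and was the single member of the 15 that passed. At least 1 blank was found in 23.4% of the members, beside 18.2% of all probes.

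**Figure D4:**
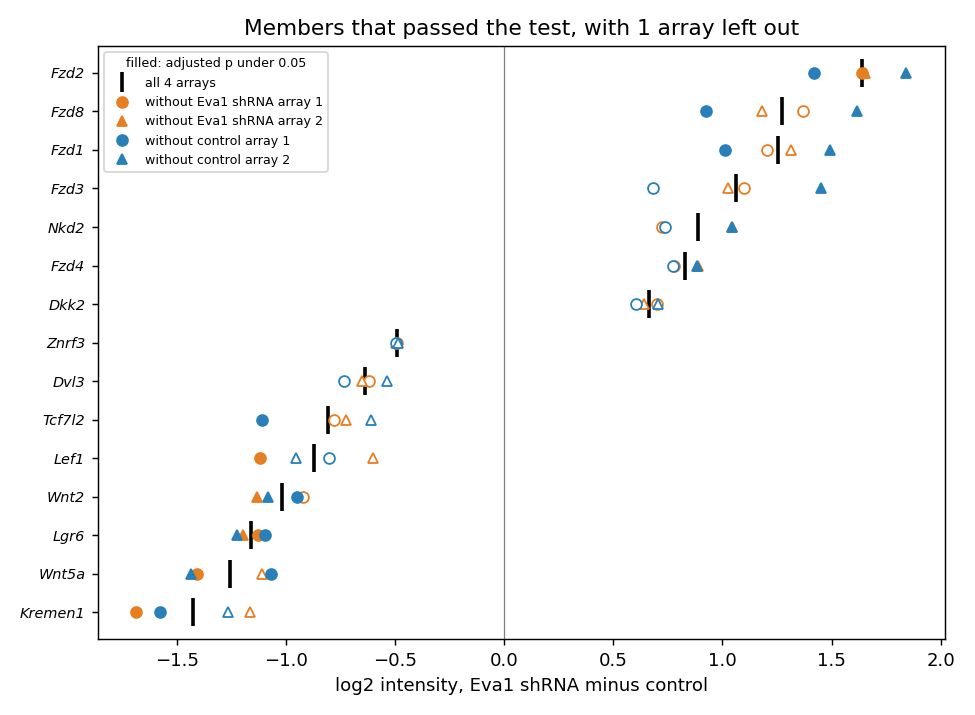
Difference in log2 intensity (x axis, Eva1 shRNA minus control) of the 15 members that passed the test, from all 4 arrays (black bars) and with 1 array left out (orange for an Eva1 shRNA array, blue for a control array), filled where the adjusted p stayed under 0.05. No gene changes sign, and Fzd2 and Lgr6 are filled in all 4 fits.

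Other genes of the pathway, in 5 lists of related components, were called at about the rate of all genes. Of 94 tested genes, 14 rose, 11 fell and 69 did not pass, which is 26.6% called beside 26.0% of all genes, with a median difference of -0.07. In the list of extracellular partners and alternative receptors 4 of 17 rose and 4 fell, which is 47.1% called beside 26.0% of all genes. Igfbp4, a secreted growth factor binding protein known in the heart as a Wnt inhibitor, fell most, with 107.4 and 142.0 on the Eva1 shRNA arrays, against 799.1 and 680.2 on the control arrays (difference -2.74, adjusted p = 0.00168). Gpc6, a heparan sulphate proteoglycan, rose (difference 2.27, adjusted p = 0.00115), with a difference of 0.73 after 16 units were added. Tspan12, a tetraspanin partner of Fzd4, fell (difference -1.23, adjusted p = 0.00548). Igfbp4, Gpc6 and Tspan12 passed whichever array was left out. The other genes of this list that passed were Ryk, a receptor of the Wnt5a branch, at 0.84, the norrin gene Ndp at 0.69, the sulphatase gene Sulf2 at 0.87, Notum, a secreted enzyme that removes the lipid from Wnt proteins, at -1.46, and Lrp4 at -0.61. With 16 units added the differences were 0.25 for Sulf2 and -0.27 for Lrp4. The call of Ryk was lost without some arrays (adjusted p up to 0.105 without Eva1 shRNA array 1), as were those of Ndp (0.130, the same array), Sulf2 (0.126, Eva1 shRNA array 2), Notum (0.0873, Eva1 shRNA array 1) and Lrp4 (0.151, the same array).

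Of 28 tested genes known as Wnt targets in some tissues, 5 rose, 3 fell and 20 did not pass. This is 28.6% called, near the 26.0% of all genes, with a median difference of -0.06. Bambi, a pseudoreceptor of the TGF-beta family, had 111.3 and 100.7 on the Eva1 shRNA arrays, against 23.9 and 26.1 on the control arrays (difference 1.89, adjusted p = 0.00160). The related matricellular genes Ccn4 and Ccn5 moved apart, with differences of 3.18 and -2.28, or 1.50 and -0.57 with 16 units added. Their dimmer groups were at 5.58 and 3.62 on the control arrays for Ccn4 and at 2.00 and 2.86 on the Eva1 shRNA arrays for Ccn5. Id2, a binding partner that blocks basic helix-loop-helix factors, rose by 2.61, and Birc5 (survivin), which is also a mitotic gene, by 1.67. Met rose by 0.65, while Sox9 and Cd44 had differences of -0.87 and -0.76 and fell. With 16 units added the differences were 0.32 for Met and -0.28 for Cd44. Bambi, Ccn4, Ccn5, Id2 and Birc5 passed in all 4 fits that left out an array. The highest adjusted p was 0.0723 for Sox9 and 0.190 for Met without Eva1 shRNA array 2, and 0.120 for Cd44 without Eva1 shRNA array 1. Many of these genes answer to other pathways as well, so their counts do not measure Wnt signalling.

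Of 17 tested genes of beta-catenin turnover, 1 rose, 1 fell and 15 did not pass, which is 11.8% called beside 26.0% of all genes. Csnk1a1, the casein kinase that primes beta-catenin for degradation, had 1217.4 and 1013.9 on the Eva1 shRNA arrays, against 578.6 and 582.1 on the control arrays (difference 0.78, adjusted p = 0.0185). Csnk1g3, a membrane-bound casein kinase, fell by 1.00 on the log2 scale (adjusted p = 0.00737). Usp34 and Tnks2, at -0.59 and -0.50, did not pass. Of 16 tested nuclear cofactors, 3 rose and 1 fell, namely the corepressor genes Ctbp1 (0.88) and Tle3 (0.51), the acetyltransferase gene Crebbp (0.72) and the chromatin remodeller gene Chd8 (-0.98). Of 16 tested planar cell polarity genes, 1 rose and 2 fell, which is 18.8% called beside 26.0% of all genes. They were Invs (0.97), Vangl2 (-0.67) and Daam1 (-0.57), and Mapk9 at -0.32 did not pass. With 16 units added the differences were 0.32 for Crebbp, 0.32 for Tle3 and -0.42 for Vangl2. Each of these 9 calls was lost without at least 1 array, with the adjusted p rising to 0.0537 for Csnk1g3, 0.0645 for Chd8, 0.147 for Crebbp and 0.162 for Daam1 without Eva1 shRNA array 2, and to 0.107 for Csnk1a1, 0.0735 for Ctbp1, 0.198 for Tle3, 0.0831 for Invs and 0.151 for Vangl2 without Eva1 shRNA array 1.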

How the data were processed

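Total RNA of 2 Eva1 shRNA and 2 control samples of NSCL61 was amplified and measured with the single dye Cy5 on 3D-Gene mouse arrays, per the labels' protocols. The deposited intensity values had a median near 25 on every array, a scaling already present in the deposited values. How background was handled, and which cells were left blank, is not stated in the labels. Arrays had values for 21842 and 21513 probes (Eva1 shRNA) and for 20662 and 20934 (control).

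Probes with a value on all 4 arrays (19199) were log2 transformed and quantile normalized, since array medians over them differed by 0.274. Symbols came from the platform annotation, updated through RefSeq. The 95th percentile of the mean of partly blank probes served as the range of blanks. Each gene was represented by its brightest probe, and 13765 genes were fitted with limma 3.58.1 in R 4.3.3 (lmFit, eBayes, 2 residual degrees of freedom), tested on simulated data. The members, the roles, the 5 companion lists and the tests were chosen with earlier results of these data known. Every member was accounted for, and of each companion list the 4 genes with the smallest p, and any other called gene, were named. The printed promoters were chosen after values were seen. Alternatives were the scaling, the filter on dim probes, 16 units added, blank cells filled, eBayes trend, other probe rules, a replicate block and each array left out. The number of arrays limits the precision. Figures used matplotlib 3.10.9 in Python 3.11.15.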

Additional observations from a re-analysis of the deposited data

Results flagged for a closer look

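Fzd9 and Wnt16 carried values on both Eva1 shRNA arrays, with mean intensities of 4.28 and 1.93, and were blank on both control arrays, so the test did not use them. Blank cells were more common on the control arrays, with 21842 and 21513 probes filled on the Eva1 shRNA arrays and 20662 and 20934 on the control arrays, and the part of this in the 2 patterns was not tested.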

How the results depend on the processing

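Of the 15 called members, all kept their direction in each alternative that held them. Outside the fits that left out an array, the 7 members called higher became 11 and the 8 called lower became 5 with the authors' scaling, and with blank cells filled those called lower became 5. All genes called numbered 2714 higher and 1295 lower with the authors' scaling, against 1720 and 1856. With 1 array left out, 1 to 7 members were called higher and 3 to 5 lower, 9 to 18 companion genes in place of 25, and 1271 to 2301 of all genes in place of 3576, in fits with 1 residual degree of freedom fewer. Arrays with the same number did not deviate together (r = -0.0093 across probes). This correlation cannot decide whether the samples were paired, since paired samples need not share a deviation. With the replicate block 8 members were called higher and 6 lower, with 20 companion genes and 3102 of all genes. Fzd5 then passed (adjusted p = 0.0417), and Dvl3 (0.0505) and Znrf3 (0.0880) did not.

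Members that were not called changed sign as follows. With the authors' scaling, which raises the median of all genes, the differences were 0.011 for Apc, 0.073 for Axin1, 0.065 for Dvl2, 0.022 for Rnf43, 0.036 for Dkk1 and 0.16 for Sfrp5. With 1 array left out they ran between -0.079 and 0.097 for Kremen2, -0.26 and 0.63 for Fzd6, -0.078 and 0.54 for Rspo4, -0.055 and 0.42 for Lrp6, -0.14 and 0.95 for Wnt7a, -0.015 and 0.32 for Wnt9b, -0.054 and 0.69 for Tcf7, -0.068 and 0.13 for Sfrp1, -0.27 and 0.18 for Sfrp5, and -0.091 and 1.08 for Wif1. The cause was not tested. Of the 49 members tested, 14 had a mean intensity of at least 25, near the median of each array, in both groups. Of the 15 called members, 11 had a mean intensity under 25 in the dimmer group. The part of background signal in the size of their changes was not tested.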
